A study of Mus musculus with 8 samples.

Results

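The genes Cd80, Cd86, Cd274, Pdcd1lg2 and Icosl encode the B7-family ligands through which an antigen-presenting cell costimulates or restrains a T cell. Accessible chromatin around them was read from ATAC-seq of mouse medullary thymic epithelial cells (mTECs), an assay that marks accessible DNA by where Tn5 transposase can insert sequencing adapters. A region was taken as belonging to a gene when it overlapped the gene body or the 20 kb on either side of it, here called its window. Of 57124 regions in the set, 31 lay in the windows of these 5 genes, and 1 of the 31 lay in both the Cd274 and the Pdcd1lg2 window.

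The cells came from thymi of wild-type mice, which the study's methods give as BL6N6 animals of 4 to 6 weeks, and were sorted by flow cytometry. The 4 groups were Tspan8neg MHCIIlow, Tspan8neg MHCIIhigh, Tspan8pos MHCIIlow and Tspan8pos MHCIIhigh, with 2 biological replicates each and 8 samples in all. All groups share the wt genotype and a gate for CD45-negative, Epcam-positive, CDR1-negative cells. Tspan8 is a tissue-restricted antigen found on a small share of mTECs, and MHC class II separates mTECs by maturity, although late stages also carry little of it. The regions form a single merged set for all 8 samples, so a position and a width belong to the set and to no group. The read counts could not be tied to the labelled samples. Levels of accessibility, depth, replicate spread and differences between the groups are therefore not analysed here, and every value below describes where a region lay, how wide it was and which bases it held.

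CD80 and CD86 are the shared ligands of the costimulatory receptor CD28 and the inhibitory receptor CTLA-4. PD-L1, the product of Cd274, and PD-L2, the product of Pdcd1lg2, bind the inhibitory receptor PD-1, and ICOSL binds the costimulatory receptor ICOS. In the thymic medulla mTECs present self-antigens to developing T cells, and CD80 and CD86 on the presenting cell contribute to the deletion of self-reactive cells and to the formation of regulatory T cells. CD80 rises on mTECs as they mature, together with MHC class II. Interferon gamma, acting in part through IRF1, is a known inducer of Cd274, and NF-kB signalling is required for mTEC development.

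All or part of the sequence that the accessible region exposes before the start of each gene is given next. Of the 5 genes, 4 had a region over an annotated transcription start, and their promoters differ in base composition. The sequences were read from the GRCm38.p6 assembly, the assembly behind mm10, on the strand of the gene. They run 5′ to 3′ to the base before the start. The stretches are chr16:38458633-38458932 for Cd80, chr19:29367309-29367454 for Cd274, chr19:29410724-29410918 for Pdcd1lg2 and chr10:78069133-78069301 for Icosl. That of Cd80 is limited to 300 bases. That of Cd274 begins directly after a start of the neighbouring gene Plgrkt in the comprehensive annotation, at 29367308. A further such start, at 29367390, lies inside it. The parts of the Cd80 and Cd274 regions farther upstream are left out of these stretches. Capitals mark a match to the KLF letters GGGNGTGG or the AP-1 letters TGANTCA on either strand.
Cd80: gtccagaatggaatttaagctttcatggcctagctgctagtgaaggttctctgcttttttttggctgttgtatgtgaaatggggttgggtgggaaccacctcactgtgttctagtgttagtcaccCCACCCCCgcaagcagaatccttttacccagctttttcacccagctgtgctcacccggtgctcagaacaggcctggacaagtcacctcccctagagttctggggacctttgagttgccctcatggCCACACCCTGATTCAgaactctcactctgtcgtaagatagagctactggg
Cd274: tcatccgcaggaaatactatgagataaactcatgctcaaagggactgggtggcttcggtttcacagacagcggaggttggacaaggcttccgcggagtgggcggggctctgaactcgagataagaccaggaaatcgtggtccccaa
Pdcd1lg2: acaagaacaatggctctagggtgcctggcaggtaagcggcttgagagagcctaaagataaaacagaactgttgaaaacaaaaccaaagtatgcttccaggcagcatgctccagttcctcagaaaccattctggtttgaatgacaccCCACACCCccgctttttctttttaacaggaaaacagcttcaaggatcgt
Icosl: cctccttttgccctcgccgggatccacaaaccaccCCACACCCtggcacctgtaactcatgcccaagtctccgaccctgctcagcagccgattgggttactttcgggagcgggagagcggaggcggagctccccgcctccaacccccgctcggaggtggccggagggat

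Cd86 had no region over a start. The sequence shown for it is the middle of the region nearest to its start, chr16:36655913-36656212 on the minus strand, inside intron 1. It held no match to any of the 7 motifs searched and so has no capitals.
Cd86: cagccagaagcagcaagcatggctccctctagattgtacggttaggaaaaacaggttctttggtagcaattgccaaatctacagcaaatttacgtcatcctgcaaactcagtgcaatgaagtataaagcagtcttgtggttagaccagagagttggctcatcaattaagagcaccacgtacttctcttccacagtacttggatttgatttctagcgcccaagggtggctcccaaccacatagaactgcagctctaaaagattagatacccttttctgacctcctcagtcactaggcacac

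A region centred at a promoter, from 1000 bases before to 100 bases after a transcription start, was found for 3 of the 5 genes, Cd80, Cd274 and Pdcd1lg2. Over all 21938 protein-coding genes the share was 48.6%. A region over a transcription start was found for 4 of the 5 (80%), the same 3 genes and Icosl, beside 56.4% of protein-coding genes. All 5 genes had at least 1 region in the window, as did 81.5% of protein-coding genes. With 5 genes, each gene moves such a share by a step of 20%, and no test was made.

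**Figure D1:**
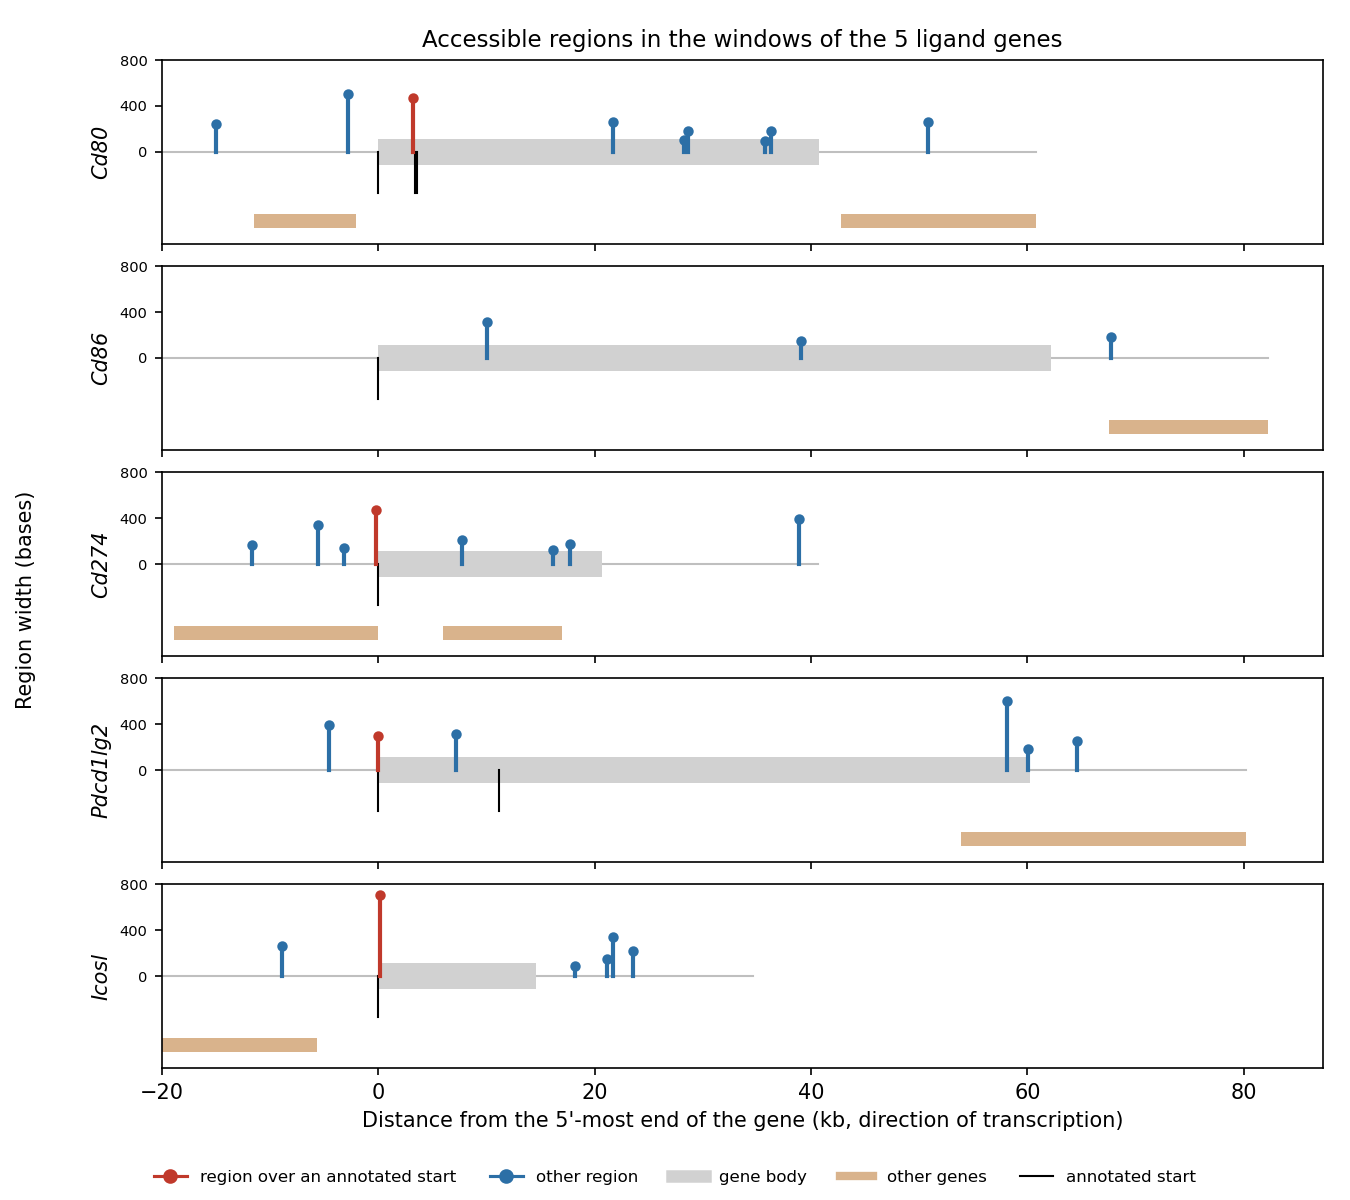
Map of the 31 regions along the 5 genes, with the distance from the 5′-most end of each gene in kb on the x axis and the region width in bases as the height of each stem. Red stems are regions over an annotated start, blue stems are other regions, grey bars are gene bodies, tan bars are other genes and black ticks below the line are annotated starts. A red stem stands at Cd80, Cd274, Pdcd1lg2 and Icosl, and the Cd86 panel has none, with its nearest region centred 10015 bases from the start.

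The ligands of CD28 and CTLA-4 differed in how many regions their windows held. Cd80 (ENSMUSG00000075122.5, chr16:38455561-38496335, plus strand) had 9 regions in a window of 80775 bases, the highest count of the 5 genes, and 6 of them touched the gene. Cd86 (ENSMUSG00000022901.13, chr16:36603869-36666081, minus strand) had 3 regions in a window of 102213 bases, the lowest count. Per 10 kb of window these are 1.11 and 0.294 regions. Of all protein-coding genes, 6% had at least as many regions as Cd80 and 54.5% at least as many as Cd86. Both genes are on chromosome 16, 1789479 bases apart, and no region was common to their windows.

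At Cd80 the annotation gives 3 transcription starts, at positions 38455561, 38458933 and 38459118 of chromosome 16. The region at chr16:38458520-38458991, 472 bases wide, covered the middle start and reached into exon 1 and its 5′ UTR. Its centre lay 178 bases before that start. Neither of the other starts was covered, and the nearest centres lay 2852 bases from the upstream start and 363 bases from the downstream start. The merged set thus has a region over 1 of the 3 annotated starts of Cd80.

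Farther from the Cd80 start, 5 regions lay in its introns. A region of 258 bases lay in intron 3 of 6, 18100 bases downstream of the nearest start, that at 38459118. Regions of 101 and 180 bases lay 207 bases apart in intron 5, and regions of 93 and 182 bases lay 411 bases apart in intron 6. The intron 5 pair was GC-rich, with 62.4% and 62.2% GC and observed to expected CpG ratios of 0.72 and 0.63. The intron 6 pair had CpG ratios of 0.00 and 0.07, and its narrower region was soft-masked as repeat over 64.5% of its bases, the only one of the 31 regions above 50%. Reads that map to several places had been discarded, which lowers the chance of finding a region in repeated sequence.

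The 3 other regions in the Cd80 window lay outside the gene. A region of 502 bases, the widest of the window, was centred 6 bases from the start of Adprh, an ADP-ribosylarginine hydrolase gene on the opposite strand, and 2852 bases from the nearest Cd80 start. It was the most GC-rich of the 31 regions, at 70.7% GC. A region of 242 bases lay between genes, 15018 bases upstream of Cd80 and nearer to the start of Pla1a, at 7398 bases. A region of 264 bases lay downstream, in an intron of Timmdc1, which encodes an assembly factor of mitochondrial complex I. Nearness to Cd80 therefore does not tie these regions to it.

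The Cd86 window was the sparsest. Its regions were 310 bases wide in intron 1 of 7, at chr16:36655908-36656217, then 152 bases wide in intron 2, and 179 bases wide beyond the 3′ end, at a promoter of the long noncoding RNA gene Gm49662. They stood 28830 and 28460 bases apart. The centres of the 2 intronic regions lay 10015 and 39076 bases downstream of the start at 36666077. The fuller annotation lists 3 further starts of Cd86, at 36604519, 36642805 and 36666081, and none of these was covered either. Absence from the set says that no peak was called there in the merged set, and the depth needed to judge how little accessibility that allows was not analysed here.

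The PD-1 ligand genes lie next to each other on chromosome 19 in the same orientation, with 22823 bases between the end of Cd274 and the start of Pdcd1lg2. Cd274 (ENSMUSG00000016496.7, chr19:29367455-29388095) had 8 regions in a window of 60641 bases, or 1.32 per 10 kb, the densest of the 5 windows. Pdcd1lg2 (ENSMUSG00000016498.10, chr19:29410919-29471161) had 6 regions in 100243 bases, or 0.599 per 10 kb. A window at least as dense was found for 4.13% and 31.4% of protein-coding genes. The single region common to both windows, chr19:29406123-29406516, was 394 bases wide and lay between the genes. It was 38864 bases downstream of the Cd274 start and 4600 bases upstream of the Pdcd1lg2 start.

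At the only annotated start of Cd274 the region chr19:29367035-29367507 was 473 bases wide, with its centre 184 bases upstream, and it reached over exon 1 and its 5′ UTR. Upstream lies Plgrkt, the gene of a plasminogen receptor, transcribed in the other direction. Its nearest start in the basic annotation set, at 29361970, is 5485 bases from the Cd274 start. A region of 338 bases, separate from that of Cd274, covered this start and the other basic-set start of Plgrkt at 29361873, and was centred 28 bases from the latter. The comprehensive set also lists Plgrkt starts at 29367308 and 29367390, the latter 65 bases from the Cd274 start, and both lie under the 473-base region. Which of the 2 genes that accessibility belongs to cannot be told apart from position alone.

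Between the basic-set promoters of Plgrkt and Cd274 a region of 140 bases was centred 3210 bases upstream of the Cd274 start. The comprehensive set lists Plgrkt starts at 29363899 and 29364462, on either side of this region. It covered neither, but its centre lay within the promoter limits of the former. A region of 161 bases lay 11726 bases upstream of the Cd274 start, in a Plgrkt intron. Inside Cd274 the regions were 213 bases wide in intron 3 of 6, 121 bases wide in intron 5 and 177 bases wide in intron 6, at 7718, 16105 and 17718 bases downstream of the start. The intron 3 and intron 5 regions also lay inside the antisense gene AC119228.1, and the intron 6 region lay at a promoter of it. ATAC-seq carries no strand, so accessibility at these regions cannot be assigned to either gene.

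At Pdcd1lg2 the region over the start at 29410919, chr19:29410724-29411017, was 294 bases wide, the narrowest of the 4 start regions, and was centred 49 bases upstream. The gene has a further annotated start at 29422059, which no region covered. The nearest centre to that start belonged to a region of 314 bases in intron 1 of 5, chr19:29417906-29418219, at 3997 bases upstream of it. The next region, chr19:29468771-29469374 in intron 5, came only after a gap of 50551 bases, the widest in any of the windows. It was 604 bases wide, and 12.8% of all regions were at least as wide. A region of 179 bases in the 3′ UTR and a region of 256 bases beyond the gene completed the window. The 604-base, 179-base and 256-base regions all lay within the span of the antisense gene A930007I19Rik, the last in an intron of it. Accessibility at the regions that lay inside both genes cannot be assigned to either from position alone. The regions in the Pdcd1lg2 gene thus stood in its upstream and downstream parts, with none in the long stretch between.

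Icosl (ENSMUSG00000000732.9, chr10:78069302-78083913, plus strand), the gene of the ICOS ligand, is the shortest of the 5 and had 6 regions in a window of 54612 bases, or 1.1 per 10 kb. The region over its start, chr10:78069133-78069835, was 703 bases wide, the widest of the 31 regions, and 8.79% of all regions were at least as wide. It covered exon 1 with its 5′ UTR and coding bases. Its centre lay 182 bases downstream of the start, which is past the limit of 100 bases, so it counted as over the start but not as centred at the promoter. It was the only region that touched the Icosl gene.

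Beyond the 3′ end of Icosl 4 regions stood between 18168 and 23566 bases downstream of the start, all between genes and all nearer to the Icosl start than to any other coding start. Their widths were 87, 150, 337 and 221 bases in order of position, and the middle pair stood 369 bases apart. The region of 87 bases was the narrowest of the 31. Upstream, a region of 258 bases lay in an intron of Dnmt3l. Aire, the transcriptional regulator that drives much of the self-antigen expression of mTECs, starts 25722 bases from Icosl, so its promoter falls outside the window.

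By their centres, 16 of the 31 regions were intronic, 7 lay at promoters, 6 between genes and 2 in exons. Of the 7 at promoters, 3 lay at promoters of the ligand genes and the others at those of Adprh, Gm49662, Plgrkt and AC119228.1. The region at the Cd274 promoter also lay over Plgrkt starts of the comprehensive set. For 20 of the 31 regions the nearest coding start was that of a ligand gene, and for 11 it was that of another gene. Of the 31 regions, 6 (19.4%) had a neighbour within 500 bases, beside 8.33% of all regions. These 6 are the Cd80 pairs in introns 5 and 6 and the Icosl pair.

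Against the windows of all protein-coding genes, Cd86 sat at the median of 3 regions and the other ligand genes lay above the upper quartile of 5. The 5 genes had a median of 6 regions. With the gene body alone the medians were 4 for the ligand genes and 1 for protein-coding genes, and with 50 kb on either side they were 11 and 5. Per 10 kb, the median of the 5 genes was 1.1 beside 0.386 for protein-coding genes, whose upper quartile was 0.688. Cd80, Cd274 and Icosl lay above that quartile, Pdcd1lg2 below it and Cd86 below the median.

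**Figure D2:**
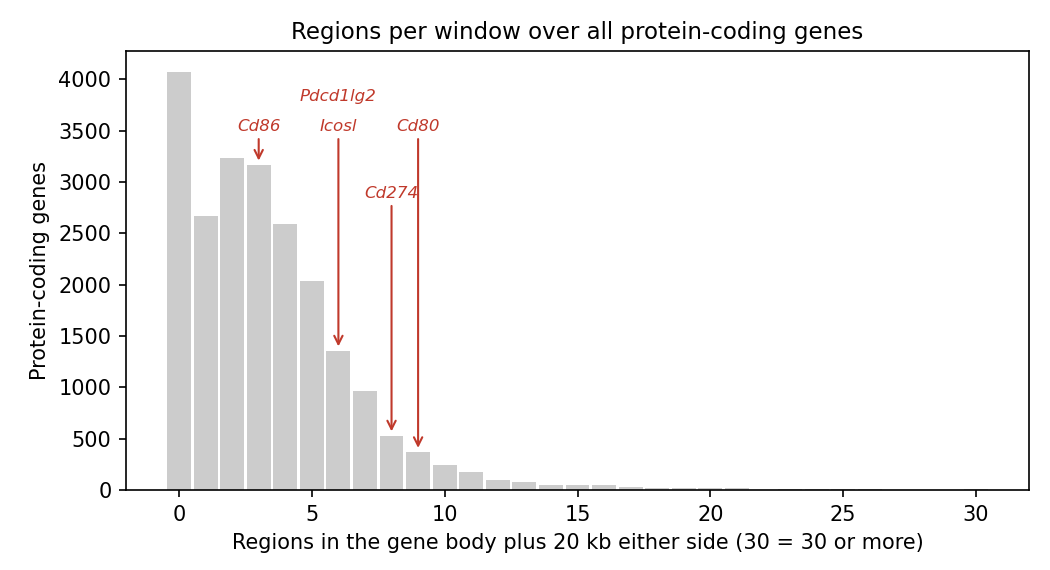
Number of regions per window (x axis, regions in the gene body plus 20 kb on either side, with 30 standing for 30 or more) against the number of protein-coding genes (y axis). Arrows mark Cd86 at 3 regions, Icosl and Pdcd1lg2 at 6, Cd274 at 8 and Cd80 at 9.

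The 31 regions had a median width of 242 bases (quartiles 169 and 326) beside 212 bases (118 and 410) for the whole set, and 13 of them (41.9%) were under 200 bases beside 47.4% of all. The 4 regions over a start had a median of 472 bases and the other 27 a median of 213. Of 10681 regions at promoters of protein-coding genes, with a median of 509 bases, 27% were at least as wide as the region at Icosl, 55.6% as wide as that at Cd80, 55.4% as wide as that at Cd274 and 78% as wide as that at Pdcd1lg2. Widths of start regions and of other regions overlapped, since the 604-base region in Pdcd1lg2 intron 5 and the 502-base region at Adprh exceeded the start regions of Cd80, Cd274 and Pdcd1lg2. A width is set by the peak caller and by the merging of peaks, and is not a level of accessibility.

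**Figure D3:**
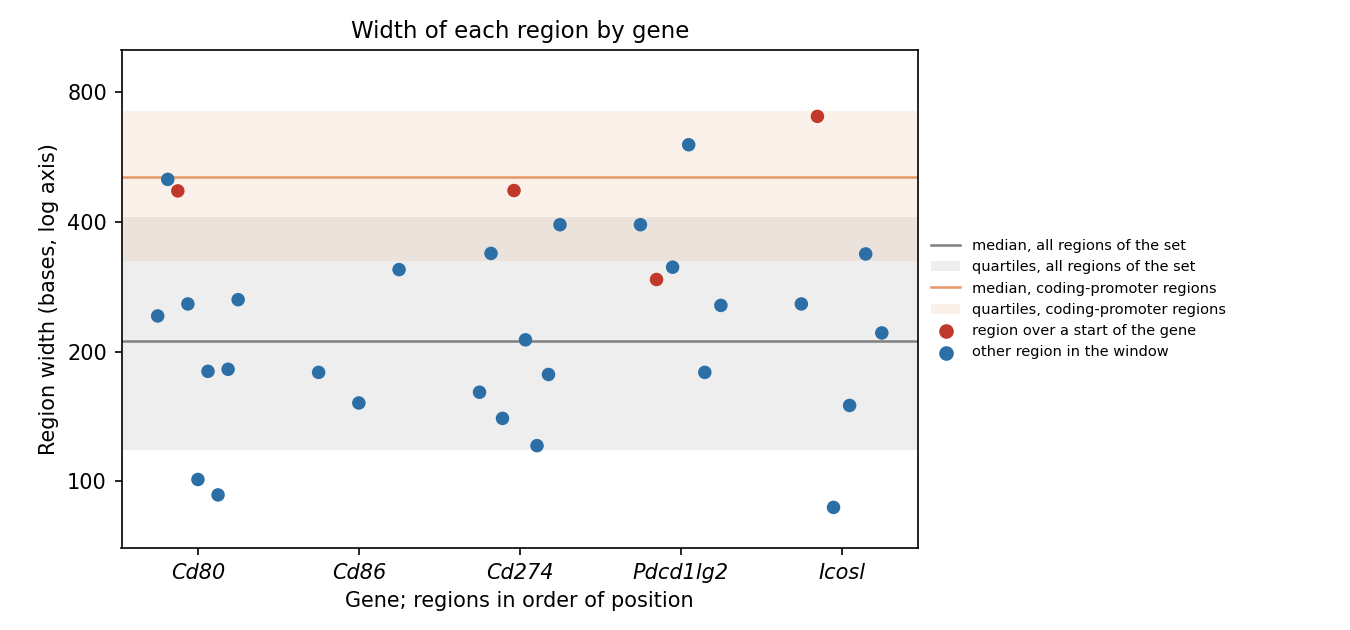
Width of each region in bases on a log axis, by gene and in order of position, with regions over a start of the gene in red and the others in blue. Lines and bands give the median and quartiles of all regions (212 bases, 118 to 410) and of regions at promoters of protein-coding genes (509 bases, 324 to 722), and the region shared by Cd274 and Pdcd1lg2 is drawn in both columns.

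Base composition split the 4 start regions. Most coding promoters of mammals lie in CpG islands, stretches that are rich in GC and keep their CpG dinucleotides. The Icosl region had that composition, with 67% GC and an observed to expected CpG ratio of 0.76, near the medians of 65.3% and 0.79 over regions at coding promoters. The Cd80 region had 45.6% GC and a ratio of 0.12, and the Pdcd1lg2 region 43.5% GC and a ratio of 0.22, both below the lower quartiles of 60.2% and 0.63. The Cd274 region was between them, with 49% GC and a ratio of 0.67. The stretches printed above hold 12 CG dinucleotides in 169 bases at Icosl, 8 in 146 bases at Cd274, 3 in 300 bases at Cd80 and 3 in 195 bases at Pdcd1lg2.

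**Figure D4:**
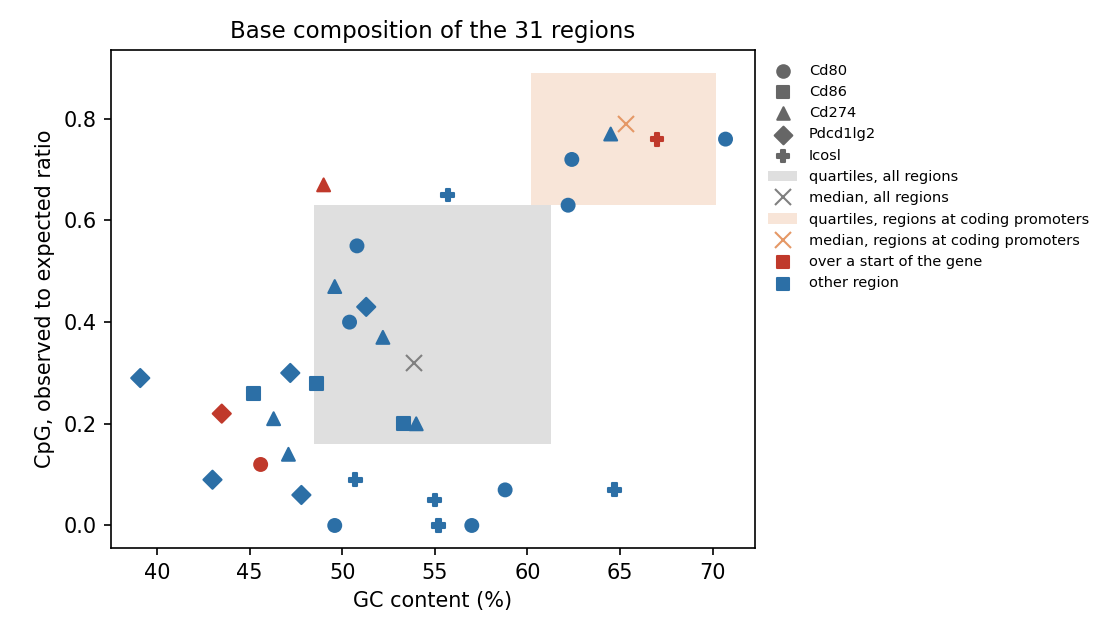
GC content in percent (x axis) against the observed to expected CpG ratio (y axis) for the 31 regions, with a marker shape for each gene, red for regions over a start of the gene and blue for the others. Boxes span the quartiles and crosses mark the medians of all regions and of regions at coding promoters, and of the 4 red points only Icosl lies inside the coding promoter box.

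Outside the start regions, the GC-rich regions of high CpG ratio were those at Adprh (70.7% GC, ratio 0.76) and Plgrkt (64.5% GC, ratio 0.77) and the pair in Cd80 intron 5. The 221-base region beyond Icosl had a ratio of 0.65, but at 55.7% GC. The 31 regions together had a median GC content of 50.8% and a median CpG ratio of 0.26, beside 53.9% and 0.32 for the whole set. Of the 31, 12 (38.7%) held no soft-masked repeat, beside 51.3% of all regions.

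The motifs searched, on both strands, were the NF-kB consensus decamer, a pair of GAAA boxes with 2 bases between them (the core of sites bound by interferon regulatory factors), the STAT letters TTCNNNGAA, the AP-1 letters TGANTCA, the ETS letters CCGGAAG, the KLF letters GGGNGTGG and the CRE letters TGACGTCA. A match describes letters and not binding. Over the 4 start regions the KLF letters occurred in 3 (Cd80, Pdcd1lg2 and Icosl), the AP-1 letters in 1 (Cd80) and the GAAA pair in 1 (Cd274), and the NF-kB, STAT, ETS and CRE motifs in 0. Of regions at coding promoters, 34.4% held the KLF letters, 9.51% the AP-1 letters and 3.89% the GAAA pair.

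In all 3 start regions with a KLF match, the 8 bases CCACACCC were present on the gene's own strand, at 47 bases before the start in Cd80, 46 bases in Pdcd1lg2 and 131 bases in Icosl. At Cd80 the AP-1 match followed it directly, 39 bases before the start, and a further KLF match lay 172 bases before it. This octamer was chosen after its matches had been seen. It occurred on either strand in 5 of the 31 regions, in 4.4% of all regions and in 6.68% of regions at coding promoters.

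In the Cd274 start region the GAAA pair stood 363 bases upstream of the start, at chr19:29367088-29367097 on the minus strand. It is printed with 10 bases on either side, with the motif in capitals.
Cd274 GAAA pair: aactaaaagtGAAAGTGAAAcctgcattag

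The NF-kB decamer, the site recognised by the factors that costimulatory and mTEC-inducing receptors activate, was held by 6 of the 31 regions and by 0 of the 4 start regions, beside 14.6% of all regions and 13% of regions at coding promoters. All of its matches lay away from starts. They were in Cd274 introns 3 and 5, at chr19:29375237-29375246 and chr19:29383560-29383569, and in Pdcd1lg2 intron 1, at chr19:29418079-29418088, all 3 on the minus strand. The others were beyond Icosl, at chr10:78087480-78087489 and chr10:78092846-78092855, and upstream of Cd80, at chr16:38440448-38440457, all on the plus strand. At the second Icosl site and at the Cd80 site a further match overlapped the one printed.
Cd274 intron 3: ggagagccttGGGGATTTCCagtcctggtg
Cd274 intron 5: aaagggtgatGGGGAATTCCtctctgatga
Pdcd1lg2 intron 1: gccacccaagGGGACTTTCCtggagcactg
Icosl downstream, 87-base region: tgcctagctgGGGGAATCCCtgtaagggcc
Icosl downstream, 221-base region: ccgcacatccGGGGGTTTCCccagaccgga
Cd80 upstream: tcgtatgcctGGGGATCTCCctgcggctcc

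KLF letters occurred in 6 of the 31 regions, beside 16.5% of all regions. AP-1 letters also occurred in 6, beside 21.3% of all regions. They included the region between Cd274 and Pdcd1lg2, the 604-base region of Pdcd1lg2 intron 5 and the intron 2 region of Cd86. STAT letters occurred in 3 regions, in Pdcd1lg2 intron 1, beyond Pdcd1lg2 and beyond Icosl, beside 7.46% of all regions. ETS letters occurred in 2, which were the regions at the Adprh and Plgrkt promoters and not at a ligand gene, beside 7.09% of all regions and 22.6% of regions at coding promoters. The CRE letters occurred in 1, upstream of Cd80, beside 1.68% of all regions. A wider region has more places for a match, and the counts in stretches of equal length are given with the alternatives.

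The receptors of the 5 ligands are carried by T cells, and none of the 4 genes Cd28, Ctla4, Icos and Pdcd1 had a region at a promoter or over a start. The nearest centres lay 16792, 3220, 3710 and 17271 bases from their starts. The 22 other genes listed as co-signalling ligands include the receptor gene Cd40. Of the 22, 9 (40.9%) had a region at a promoter and 11 (50%) a region over a start. These shares are near the 48.6% and 56.4% of all protein-coding genes. Among the genes with both were Cd40, a TNF receptor family member through which T cells signal to mTECs, with a region of 505 bases. Icam1, an adhesion ligand of T cells, also had both, with 837 bases. Cd276 and Vtcn1, the B7-H3 and B7-H4 genes of the same family as the 5 ligands, had none, with nearest centres 274 and 23141 bases from their starts.

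Of the interferon gamma pathway genes, all 6 had a region over a start and 4 (66.7%) a region centred at a promoter. Over all protein-coding genes these shares were 56.4% and 48.6%. The regions were 962 bases wide at Irf1, 965 at Jak2 and 714 at Ifngr1. Regions at coding promoters had a median of 509 bases and an upper quartile of 722. Of the NF-kB pathway genes, all 9 had a region over a start and 4 (44.4%) a region centred at a promoter. Among the latter were Nfkb2 with 764 bases and Map3k14, the kinase of the non-canonical pathway, with 687 bases. Relb, the partner of Nfkb2 in that pathway, had a region of 1297 bases over its start that was centred 482 bases from it.

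**Figure D5:**
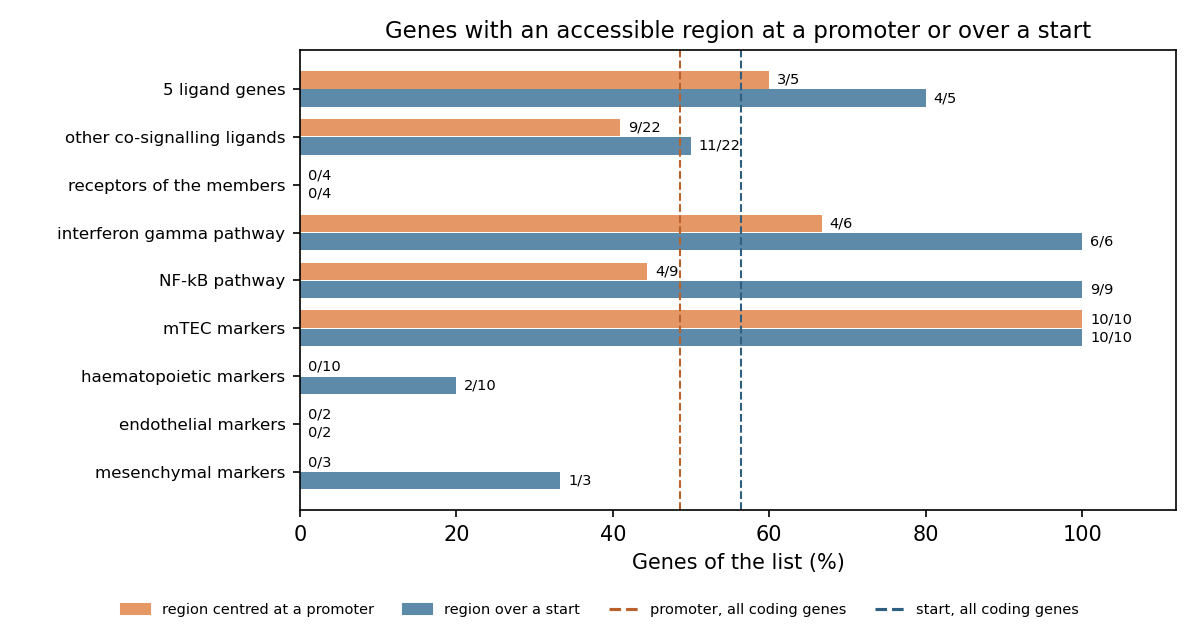
Share of the genes in each list, in percent, with a region centred at a promoter (orange) or over a transcription start (blue), with the counts beside the bars. Dashed lines give the shares over all protein-coding genes, 48.6% and 56.4%, and the ligand genes stand at 60% and 80%, with the receptor genes at 0 for both.

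Marker genes of cell types were read in the same way. The cells had been sorted by Epcam, CD45 and MHC class II, so Epcam, Ptprc and H2-Ab1 are no independent check of the label. All 10 mTEC markers, which include Epcam, Krt5, Aire and H2-Ab1, had a region centred at a promoter and a region over a start. Over all protein-coding genes the shares were 48.6% and 56.4%. Of 10 markers of haematopoietic cells, some of which also carry these ligands, 0 had a region centred at a promoter and 2 had one over a start, Zbtb46 with 1164 bases and Flt3 with 322 bases. Ptprc, the CD45 gene, and Cd3e had neither. Of the other markers, 0 of 2 endothelial and 1 of 3 mesenchymal genes (Pdgfra, 603 bases) had a region over a start. A region at a promoter is no measure of transcription, and the part of other cells in the regions of the 5 ligand genes was not tested.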

How the data were processed

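ATAC-seq was made from 8 samples of sorted mTECs. The authors aligned reads to mm10 with Bowtie2, discarded mitochondrial, multimapping and low-quality reads, marked and removed PCR duplicates (Picard), and called broad MACS2 peaks, which bedtools then merged. The methods do not say if peak calling pooled the samples. Per the file headers, reads over the merged regions were counted with featureCounts 2.0.3. Of the deposited values, region starts, ends and widths (in bases) were used, which describe the merged set. The 8 columns of read counts have names that match no label and were not used, so no depth, interval or test is given. The planned tests between groups were not run.

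Regions were placed on the basic set of GENCODE M21 by overlap with gene bodies and 20 kb on either side, and by their centres as promoter (from 1000 bases before to 100 bases after a start), exon, intron or intergenic. No region ran past the end of a chromosome of the GRCm38.p6 reference. Repeat content is the share of soft-masked bases. The observed to expected CpG ratio is the number of CG dinucleotides times the width, divided by the product of the numbers of C and G. Motifs were searched on both strands. Sequences were printed only where no UTR is annotated. The 5 genes and the gene lists were chosen with earlier results of these data known. Named genes are the 5 ligand genes, genes in their windows or with a start nearest to a region there, and 2 to 4 examples of each ligand, receptor and pathway list; cell type markers are given by counts with examples. The value of 1 listed gene is not reported here. Counting functions were tested on simulated data. Python 3.11.15, numpy 2.4.6, pandas 2.3.3 and matplotlib 3.10.9 were used.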

Additional observations from a re-analysis of the deposited data

How the results depend on the processing

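Of 34 alternatives over 6 results, 30 stayed within 1.5 times the value given and 4 did not. The 31 regions in the windows became 18 with regions of at least 200 bases alone, 47 with 50 kb on either side and 17 with the gene body alone, and the median of 6 regions per gene became 11 with 50 kb, as the size of the window or the width limit sets these counts. The number of ligand genes with a region at a promoter was 3, and 4 where overlap with 1000 bases either side of a start, or with a start, was asked for, which adds Icosl. The median width of 242 bases ran from 213 to 312. In stretches of 300 bases around each centre, the NF-kB decamer was found in 8 of 31 (14% of all regions) and the AP-1 letters in 10 (22.4%). KLF letters were found in 8 (15.1%), STAT letters in 4 (8.75%) and ETS letters in 2 (5.41%). The GAAA pair was found in 1 (4.16%) and the CRE letters in 1 (1.29%). Of the 4 start regions, 2 held the KLF letters in these stretches and 0 the GAAA pair.

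No paired analysis was possible because neither a sample label nor a replicate number is carried by the columns of counts. The planned edgeR comparison and its alternatives, a replicate block, DESeq2, other size factors, no count filter and leaving out replicates, were not run. What the depth of the libraries limits is not analysed here.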
